A study of Homo sapiens with 48 samples.

Results

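The genes described here are the replication-dependent histone genes, which supply the histones that package newly copied DNA, together with SLBP, the protein that binds the end of their mRNAs. They were chosen by name (HIST1 to HIST4 genes of the H1, H2A, H2B, H3 and H4 classes) with a mean of 10 or more expected counts per library, and SLBP was added by name. This gave 52 genes of the 58870 in the table: 3 H1, 15 H2A, 14 H2B, 8 H3 and 11 H4 genes, and SLBP. The name pattern matched 89 genes, of which 38 stayed under the minimum, 8 of them with no count in any library. The gene just inside it was HIST1H2BG with a mean of 29.4 counts, and the gene just outside was HIST1H3F with 6.0. All 52 passed the filter on low counts and were tested. By position in hg38, 36 lay in the HIST1 cluster (chromosome 6, 26020490 to 27893843), 12 in HIST2 (chromosome 1, 149782689 to 149887916), 2 in HIST3 (chromosome 1, 228456979 to 228460470) and 1 in HIST4 (chromosome 12, 14767999 to 14771131). SLBP lies at chromosome 4, 1692800 to 1712555, on the minus strand. HIST2H2BD is annotated as a transcribed pseudogene, and the other members are protein-coding.

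The 48 libraries hold RNA depleted of ribosomal RNA. The cells were Flp-In 293 T-REx, human embryonic kidney cells with a site for inserting 1 transgene. There were 8 stable lines. In 6 of them the transgene was a mutant UPF1 fused to the CLIP tag (F192E, FE-ER, I757R, IR-ER, E797R or LECY), one line had the tagged wild-type protein (WT), and one is labelled CLIP with no UPF1 named. The labels do not spell out FE-ER, IR-ER or LECY. Each line was transfected with 40 nM of an siRNA against endogenous UPF1 (siUPF1) or of a non-targeting siRNA (siNT) for 72 h, in 3 biological replicates, which gives 16 groups. Whether a line came from a single clone was not given in the sources used here, so a difference between lines is a difference between 1 line of each kind. UPF1 itself had 20.4 ± 0.916 CPM (counts of a gene scaled to the same total in every library) with siUPF1 and 106 ± 7.45 CPM with siNT in CLIP cells (SD, n = 3 each; log2 change −2.37, SE 0.13, edgeR adjusted p = 2.1e-17). In the lines with a UPF1 transgene, group means were 3260 to 4819 CPM with siUPF1 and 3613 to 4405 CPM with siNT, and reads of transgene and endogenous gene were not separated. Libraries held 6016962 to 14551811 counts. All 7 markers of HEK293 cells examined were detected in every library, with sums of 879.3 to 1315 CPM. The 6 blood and 4 hepatocyte markers had medians of 0 to 1.24 CPM each, with CD3E at 0 in all 48 libraries, and the 7 fibroblast markers summed to 4.13 to 13.2 CPM. Of the HEK293 markers, INA fell with siUPF1 in all 8 lines (−0.82 to −0.42) and PAX2 in 3. HBA1, the 1 blood marker abundant enough to test, fell in CLIP (−1.34), F192E (−1.92) and I757R (−2.15). Of 3 fibroblast markers tested, COL3A1 fell in CLIP (−1.40) and rose in I757R (1.16) and E797R (1.48), and COL1A1 fell in LECY (−1.19). All these calls are at adjusted p under 0.05 by edgeR, and their part in the results below was not tested. No replicates were duplicates, since each pair differed by more than counting noise.

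Histone mRNAs of this kind differ from other mRNAs. They carry no poly(A) tail and end in a short stem-loop, which SLBP binds and which steers 3′ end processing, export, translation and decay. The mRNAs are made during S phase and are degraded when DNA synthesis stops, and UPF1 is recruited to the stem-loop complex in that decay, apart from its role in nonsense-mediated decay of mRNAs with early stop codons. Several of these genes can also give polyadenylated transcripts that run past the stem-loop.

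The stem-loop is shown because it is the element that sets these mRNAs apart and that links them to SLBP and UPF1. The letters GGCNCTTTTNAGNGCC were searched on the sense strand of GENCODE 29 transcripts (hg38). They were found in 28 of the 51 histone members, and in 34 of 19684 protein-coding genes in all (0.173%), of which 27 were members. There were 5 forms, written 5′ to 3′ with the bases of the stem in capitals and the loop in lower case. The first was shared by 16 members, among them HIST1H2AE, HIST1H2BG and HIST2H2AA4 of the results below.
HIST1H2AE, chr6:26217417-26217432, plus strand: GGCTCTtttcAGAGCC
HIST1H4E, chr6:26205001-26205016, plus strand, shared by 5 H4 genes: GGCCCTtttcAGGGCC
HIST1H2BF, chr6:26199968-26199983, plus strand, shared by 3 H2B genes: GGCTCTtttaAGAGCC
HIST2H4A, chr1:149833032-149833047, plus strand, shared with HIST2H4B: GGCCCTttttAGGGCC
HIST1H2AG, chr6:27133515-27133530, plus strand, shared with HIST2H2BD: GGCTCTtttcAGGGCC
The forms differ in 1 base pair of the stem and in the last base of the loop. A missing match says only that these letters are not in the annotated transcript. The 23 histone members without one had a longest transcript of 312 to 2679 bases with a median of 393. Of the 28 with a match, 12 had more than 300 bases annotated past the stem-loop, 1059 in HIST1H2BG and 732 in HIST1H2BF, while HIST1H2AE had 51.

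Levels per length, as CPM per kb of the longest annotated transcript, gave the order of the members. Linker histone genes led: HIST1H1E averaged 1035 CPM per kb and HIST1H1C 967 CPM per kb over the 48 libraries. The highest core histone genes were HIST2H2AA4 among H2A (506 CPM per kb), HIST1H3B among H3 (416 CPM per kb), HIST1H2BK among H2B (287 CPM per kb) and HIST1H4C among H4 (115 CPM per kb). SLBP had 62.7 CPM per kb, and HIST1H2BE was lowest at 1.84 CPM per kb. For genes with long annotated transcripts these values depend on which transcript is made, which was not measured.

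SLBP fell with siUPF1 in all 8 lines, and was 1 of 534 genes (3.2% of all tested) called lower in each of them. In LECY cells it had 99.4, 97.2 and 82.9 CPM with siUPF1, against 149, 156 and 144 CPM with siNT. In CLIP cells it had 86.3, 98.8 and 91.3 CPM with siUPF1, against 136, 141 and 144 CPM with siNT. The groups did not overlap in either line. The log2 changes were −0.69 in LECY (adjusted p = 2.89e-08) and −0.61 in CLIP (adjusted p = 2.12e-07), each with an SE of 0.08. Across the lines the 24 siUPF1 libraries lay between 82.9 and 122 CPM and the 24 siNT libraries between 136 and 158 CPM, so every knockdown library was below every control library, of its own line or of another. The fall was smallest in E797R, with 109, 122 and 98.8 CPM with siUPF1 against 145, 147 and 146 CPM with siNT (−0.41, SE 0.08, adjusted p = 0.000418), and in WT, with 103, 120 and 108 CPM with siUPF1 against 147, 155 and 149 CPM with siNT (−0.44, SE 0.08, adjusted p = 0.000158). The other 4 mutant lines had log2 changes of −0.66 (F192E), −0.62 (FE-ER), −0.60 (I757R) and −0.56 (IR-ER), each with an adjusted p of 4.17e-06 or less. In bulk RNA a smaller share of cells in S phase and less SLBP RNA per cell cannot be told apart.

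**Figure D1:**
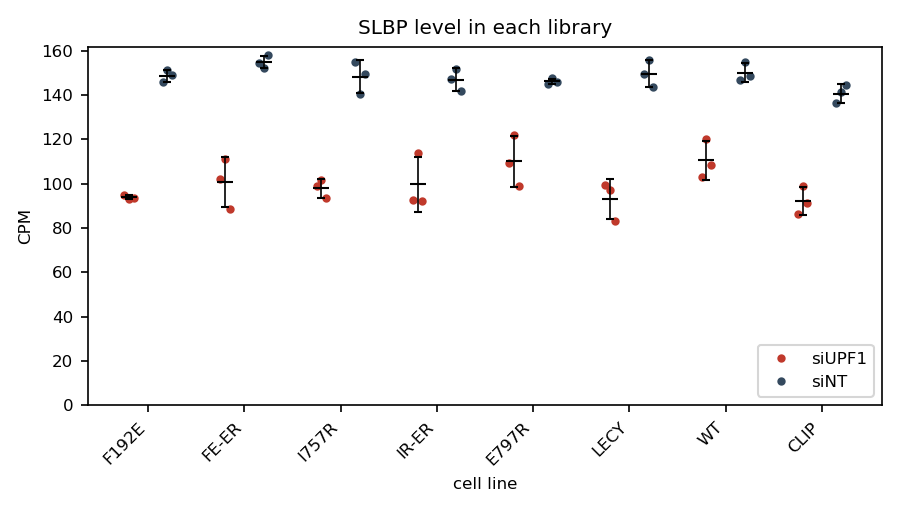
SLBP level in CPM (y axis) in each of the 48 libraries, by cell line (x axis). Points are libraries, red for siUPF1 and dark blue for siNT, and bars are mean ± SD of 3. In each line the 3 siUPF1 points (82.9 to 122 CPM over all lines) lie below the 3 siNT points (136 to 158 CPM).

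Whether the fall of SLBP differed between lines was tested as a difference of log2 changes. SLBP differed by −0.24 in LECY minus WT (95% interval −0.47 to −0.01, unadjusted p = 0.0461, edgeR adjusted p = 0.36). For the other mutants minus WT the differences ran from −0.22 in F192E (95% interval −0.45 to 0.01) to 0.03 in E797R (95% interval −0.20 to 0.26), each with an adjusted p of 1. WT minus CLIP gave 0.17 (95% interval −0.06 to 0.40, adjusted p = 0.599). None of these passed the test, which does not show that SLBP responded alike.

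Few histone genes changed with siUPF1, and the changes went both ways. The 52 members had 1 to 4 rises and 1 to 8 falls per line, SLBP included among the falls. LECY and CLIP, the lines in which most genes of the table changed, also had most falls among the members. In F192E 3 members rose (5.77%, against 11.8% of all 16697 genes tested) and 3 fell (5.77%, against 10.1%). For FE-ER, 1 rose (1.92%, against 10.1%) and 2 fell (3.85%, against 8.52%). I757R had 1 rise (1.92%, against 8.13%) and 4 falls (7.69%, against 7.79%). These shares were at or below those of all genes. With IR-ER 4 members rose (7.69%, against 9.21%) and 2 fell (3.85%, against 7.80%). Among the E797R changes, 2 members rose (3.85%, against 8.34%) and 2 fell (3.85%, against 7.73%). LECY cells showed 3 rises (5.77%, against 15.8%) and 7 falls (13.5%, against 13.6%). The fall share of LECY was that of all genes, and its rise share was lower. WT cells had 3 rises (5.77%, against 8.43%) and 1 fall (1.92%, against 6.98%). CLIP cells had 4 rises (7.69%, against 18.1%) and 8 falls (15.4%, against 15.6%). In this fit no line had a larger share of members than of all genes called, in either direction. With replicate numbers as a block, 13 members fell in LECY (25%, against 20.2% of all genes in that fit), the one line above the share of all genes. The block gave 11 falls in CLIP (21.2%, against 22.2%), 7 in I757R (13.5%, against 14.1%), 5 in F192E (9.62%, against 16.7%), 5 in FE-ER (9.62%, against 14.9%) and 4 in E797R (7.69%, against 13.5%). A fit without the expression filter differed: over the same 16697 genes, it called 14 members lower in I757R (26.9%, against 7.49% of all genes), 16 in LECY (30.8%, against 12.2%) and 11 in CLIP (21.2%, against 13.1%). The shares of members that fell were above those of all genes in all 8 lines there, so the comparison with genes in general depends on the filter.

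Over all 52 members, called or not, the changes leaned downward. The median log2 change of the members was −0.14 (F192E), −0.15 (FE-ER), −0.18 (I757R), −0.03 (IR-ER), −0.21 (E797R), −0.20 (LECY), −0.09 (WT) and −0.18 (CLIP), while the median of all genes lay between −0.03 and 0.02. Values below 0 were seen for 28 (IR-ER) to 42 (I757R) of the 52 members, that is for 53.8% to 80.8% of them, against 48.2% to 52.3% of all genes. The members share regulation and, in part, reads, so these shares describe the set and were not tested.

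**Figure D2:**
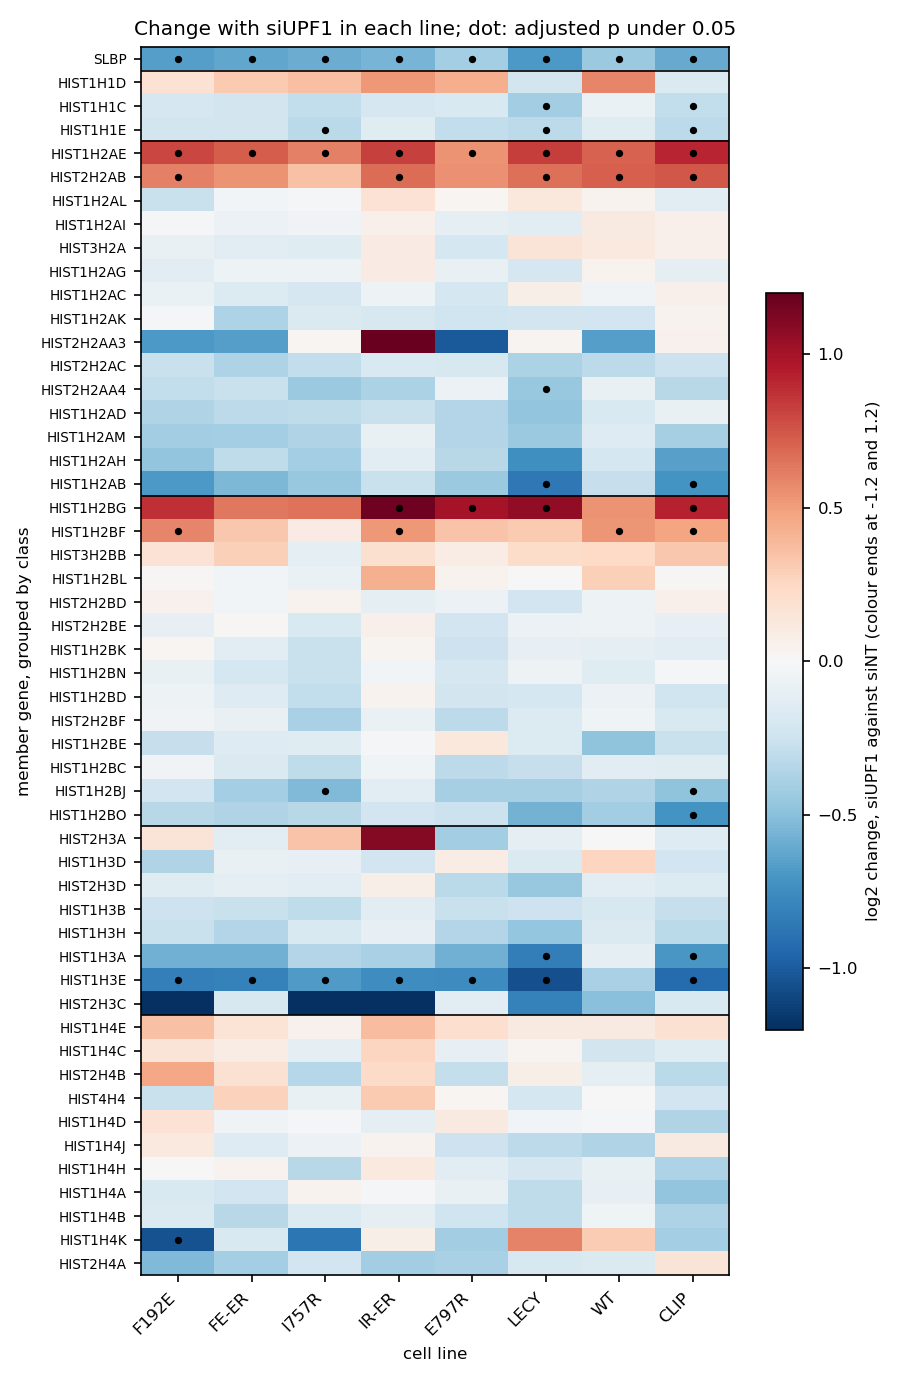
Log2 change with siUPF1 against siNT of each of the 52 members (y axis, grouped by class) in each cell line (x axis). Blue is lower and red higher with siUPF1, colours end at −1.2 and 1.2, and a dot marks an adjusted p under 0.05. SLBP (8 lines) and HIST1H3E (7 lines) carry dots on blue, and HIST1H2AE (8 lines) and HIST2H2AB (5 lines) on red.

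Summed histone RNA had a lower mean with siUPF1 in all 8 lines, with overlapping groups. Between libraries of the same replicate number, the sum was lower with siUPF1 in all 3 pairs in F192E, FE-ER, I757R, E797R and LECY, and in 2 of 3 in IR-ER, WT and CLIP. All 51 histone members together had 4323, 4153 and 4064 CPM with siUPF1 and 4216, 4859 and 5226 CPM with siNT in CLIP cells. I757R cells had 4764, 3787 and 3419 CPM with siUPF1 and 5086, 4228 and 4950 CPM with siNT. The groups overlapped in both lines, and they did so in all 8. The siUPF1 mean was 83.9% (I757R) to 96.6% (IR-ER) of the siNT mean over the 8 lines. By class the sum of H4 was 87.1% (I757R) to 108.7% (IR-ER) of siNT, that of H2A 87.7% (I757R) to 100.0% (IR-ER), that of H2B 82.1% (I757R) to 100.9% (IR-ER), and that of H3 80.7% (E797R) to 91.0% (IR-ER). The siUPF1 and siNT groups of these 4 classes overlapped in every line.

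**Figure D3:**
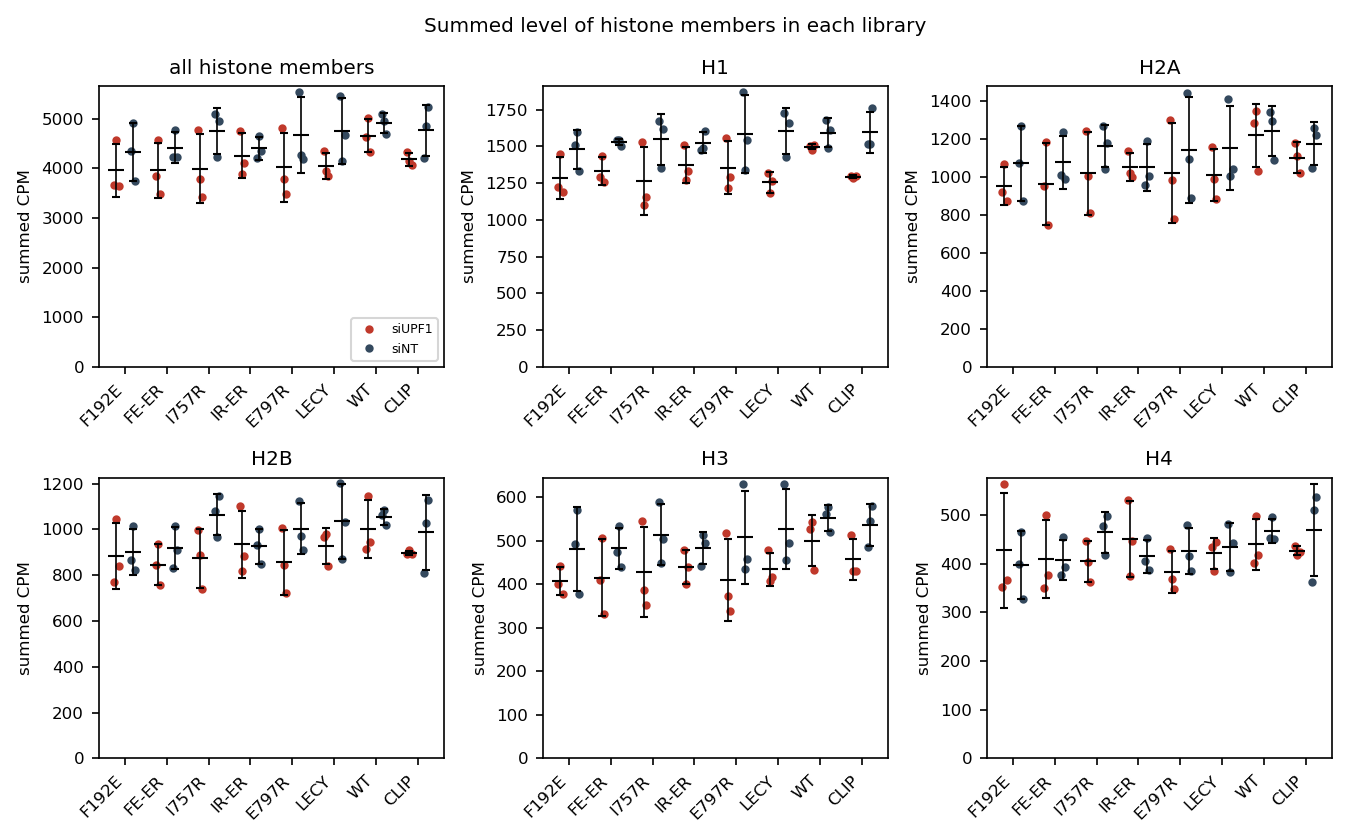
Summed CPM (y axis) of all 51 histone members and of each class in every library, by cell line (x axis). Points are libraries (red siUPF1, dark blue siNT) and bars mean ± SD of 3. The groups overlap in every panel and line except H1 in LECY, FE-ER and CLIP, where the siUPF1 points lie lower.

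H1 linker histones bind the DNA between nucleosomes, and their 2 abundant genes fell in some lines. The H1 sum in LECY was 1317, 1181 and 1268 CPM with siUPF1, against 1730, 1427 and 1660 CPM with siNT. CLIP cells had 1302, 1285 and 1298 CPM with siUPF1, against 1515, 1519 and 1758 CPM with siNT. FE-ER cells had 1294, 1438 and 1258 CPM with siUPF1, against 1545, 1542 and 1504 CPM with siNT. These 3 lines were those in which the groups did not overlap, at 78.2%, 81.1% and 86.9% of siNT. HIST1H1C (chromosome 6, 26055787 to 26056428) had 566, 456 and 538 CPM with siUPF1 against 747, 608 and 727 CPM with siNT in LECY (−0.42, SE 0.12, adjusted p = 0.00489). It also fell in CLIP (−0.30, SE 0.11, adjusted p = 0.0391). HIST1H1E (chromosome 6, 26156354 to 26157107) fell in CLIP (−0.31, SE 0.12, adjusted p = 0.033), LECY (−0.31, adjusted p = 0.0364) and I757R (−0.32, adjusted p = 0.0499). The CLIP calls of both genes sat near the threshold: each of the 6 libraries ended the HIST1H1C call when left out (adjusted p 0.054 to 0.197), and all but siNT replicate 1 ended that of HIST1H1E (up to 0.184). HIST1H1D, the third H1 member, was called in no knockdown, with log2 changes of −0.22 in LECY to 0.59 in WT.

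HIST1H2AE, an H2A gene of the HIST1 cluster (chromosome 6, 26216975 to 26217483, plus strand), rose with siUPF1 in all 8 lines. It had 30.7, 28.9 and 26.1 CPM with siUPF1, against 15.9, 14.8 and 14.8 CPM with siNT, in CLIP cells (log2 change 0.92, SE 0.19, adjusted p = 0.000225). LECY cells had 21.9, 21.5 and 22.2 CPM with siUPF1, against 16.4, 10.95 and 9.79 CPM with siNT (0.83, SE 0.20, adjusted p = 0.00147). WT cells had 26.8, 28.7 and 25.8 CPM with siUPF1, against 17.7, 17.9 and 14.05 CPM with siNT (0.71, SE 0.20, adjusted p = 0.00974). The groups did not overlap in these lines, and in 7 of 8 lines in all. The exception was E797R, with 34.7, 22.6 and 20.9 CPM with siUPF1 and 24.6, 14.7 and 14.02 CPM with siNT, where replicate 1 was high with both siRNAs (0.54, SE 0.19, adjusted p = 0.0485). In F192E, FE-ER, I757R and IR-ER the log2 changes were 0.80, 0.73, 0.61 and 0.82. Among all genes tested, 591 (3.54%) were called higher in all 8 lines. The call was lost without siUPF1 replicate 1, siNT replicate 2 or siNT replicate 3 in E797R (log2 change down to 0.27, adjusted p up to 0.459), without siUPF1 replicate 1 or siNT replicate 2 in I757R (down to 0.40, up to 0.227), without siUPF1 replicate 1 in IR-ER (0.60, 0.0559) and without siNT replicate 3 in WT (0.62, 0.0611).

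HIST2H2AB, an H2A gene of HIST2 (chromosome 1, 149887524 to 149887916, minus strand), rose in 5 lines and was above 0 in all 8. CLIP cells had 119, 124 and 113 CPM with siUPF1, against 61.4, 82.7 and 68.8 CPM with siNT (0.74, SE 0.20, adjusted p = 0.00389). WT cells had 126, 134 and 94.7 CPM with siUPF1, against 77.7, 78.7 and 59.4 CPM with siNT (0.72, SE 0.20, adjusted p = 0.0125). The groups of these lines did not overlap. IR-ER, LECY and F192E followed with log2 changes of 0.67, 0.66 and 0.61, and FE-ER, E797R and I757R had 0.54, 0.55 and 0.36 without passing the test (adjusted p = 0.0596, 0.0618 and 0.256). The replicate block added FE-ER (adjusted p = 0.0141) and E797R (adjusted p = 0.0122), which makes 7 lines. Apart from CLIP, each of the 5 calls was lost without single libraries: siUPF1 1 or 2 or siNT 1 or 3 in F192E (adjusted p up to 0.216) and IR-ER (up to 0.108), siUPF1 1 or siNT 3 in LECY (up to 0.151), and siUPF1 1, siUPF1 2 or siNT 3 in WT (up to 0.0853). The gene overlaps BOLA1 on the other strand by 27 bases. BOLA1 was called in no line (log2 changes −0.50 to 0.05), and strand use in the counting was not given in the sources used here.

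No other H2A member was called higher in any line. HIST2H2AA3 had 98.3, 59.2 and 50.3 CPM with siUPF1 against 21.2, 34.0 and 36.0 CPM with siNT in IR-ER, groups that did not overlap (1.19, SE 0.99, adjusted p = 0.476), and it has a near-identical copy, described below. HIST1H2AB (chromosome 6, 26033176 to 26033568) fell in LECY, with 25.9, 24.0 and 17.3 CPM with siUPF1 against 50.1, 38.5 and 32.2 CPM with siNT (−0.85, SE 0.27, adjusted p = 0.0144). It fell in CLIP too, with 26.8, 28.1 and 24.5 CPM with siUPF1 against 39.5, 47.4 and 43.5 CPM with siNT (−0.72, SE 0.26, adjusted p = 0.031). Its log2 change was below 0 in all 8 lines, and the block made it 4 lines. The call in LECY was lost without siNT replicate 1 or siUPF1 replicate 3 (adjusted p up to 0.103), and that in CLIP without any library but siNT replicate 1 (up to 0.107).

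Among H2B genes, HIST1H2BG and HIST1H2BF rose in 4 lines each. HIST1H2BG (chromosome 6, 26215159 to 26216692, minus strand) was rare, with 7.17, 3.56 and 4.44 CPM with siUPF1 against 2.50, 2.27 and 1.91 CPM with siNT in IR-ER cells (1.17, SE 0.36, adjusted p = 0.0185). CLIP cells had 4.41, 3.67 and 6.12 CPM with siUPF1 against 2.25, 2.21 and 2.93 CPM with siNT (0.92, SE 0.34, adjusted p = 0.0343). The groups did not overlap in either. It also rose in LECY (1.06, adjusted p = 0.026) and E797R (0.997, adjusted p = 0.0488), and its log2 change in the other lines was 0.54 to 0.88. Single libraries ended each call: siUPF1 1, siNT 2 or siNT 3 in IR-ER (adjusted p up to 0.193), these or siUPF1 2 in E797R (up to 0.427), siUPF1 2, siNT 2 or siNT 3 in LECY (up to 0.121), and siUPF1 3, siNT 1 or siNT 2 in CLIP (up to 0.173). The replicate block added F192E (adjusted p = 0.0152).

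HIST1H2BF (chromosome 6, 26199520 to 26200715, plus strand) had 42.4, 42.0 and 40.0 CPM with siUPF1, against 28.8, 30.7 and 29.9 CPM with siNT, in CLIP cells (0.48, SE 0.17, adjusted p = 0.0303). F192E cells had 37.7, 50.01 and 37.5 CPM with siUPF1, against 28.3, 29.7 and 25.4 CPM with siNT (0.59, SE 0.17, adjusted p = 0.0121). In both lines the groups were apart. It rose in WT (0.53, adjusted p = 0.032) and IR-ER (0.52, adjusted p = 0.0356), and I757R had the smallest value, 0.10. Leaving out 1 library ended the call in CLIP for every library but siUPF1 replicate 3 (adjusted p up to 0.0757) and in WT for siUPF1 replicate 2, siNT replicate 2 and siNT replicate 3 (up to 0.227).

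HIST1H2BJ fell in CLIP (−0.48, SE 0.19, adjusted p = 0.043) and I757R (−0.53, SE 0.19, adjusted p = 0.0477), and HIST1H2BO in CLIP (−0.71, SE 0.25, adjusted p = 0.0255). Of the 14 H2B members, 10 were called in no line, which also held for 52.9% of all genes tested. The most abundant H2B gene by CPM, HIST2H2BF, had log2 changes of −0.39 to −0.04 with no call.

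HIST1H3E was the H3 gene that moved most often. It lies at chromosome 6, 26224199 to 26227473, on the plus strand, and fell in 7 lines. Among all genes tested, 211 (1.26%) were called lower in 7 lines and 534 (3.2%) in 8. For HIST1H3E the values were as follows. LECY cells had 3.97, 5.12 and 3.88 CPM with siUPF1, against 9.90, 9.11 and 7.74 CPM with siNT (−1.05, SE 0.17, adjusted p = 8.54e-06). CLIP cells had 4.30, 4.87 and 3.85 CPM with siUPF1, against 6.10, 9.65 and 8.89 CPM with siNT (−0.93, SE 0.17, adjusted p = 3.19e-05). F192E cells had 5.25, 4.79 and 5.93 CPM with siUPF1, against 8.22, 10.5 and 9.73 CPM with siNT (−0.82, SE 0.16, adjusted p = 0.000204). In all 7 lines the groups were apart. FE-ER, E797R, IR-ER and I757R had log2 changes of −0.81, −0.76, −0.74 and −0.68. WT cells had 5.42, 8.14 and 5.57 CPM with siUPF1 and 7.22, 9.21 and 8.35 CPM with siNT, which overlapped (−0.39, SE 0.17, adjusted p = 0.12). Without siUPF1 replicate 2, the library with 8.14 CPM, the WT change was −0.59 and passed the test (adjusted p = 0.0287). All its 48 values were whole numbers, so none of its reads was divided between genes, and its longest annotated transcript, 2679 bases, holds no match to the stem-loop letters.

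HIST1H3A (chromosome 6, 26020490 to 26020900) fell in LECY (−0.83, SE 0.28, adjusted p = 0.0217) and CLIP, where it had 3.73, 4.23 and 3.96 CPM with siUPF1 against 6.23, 6.38 and 6.75 CPM with siNT (−0.70, SE 0.28, adjusted p = 0.0469). DESeq2 gave an adjusted p of 0.0508 for CLIP, and leaving out any 1 of the 6 libraries ended that call (0.0747 to 0.134). The LECY call was lost without siNT replicate 1, siNT replicate 3 or siUPF1 replicate 3 (up to 0.166). HIST1H3B, the H3 gene with the highest mean CPM when genes are taken singly (170.8), was below 0 in all 8 lines without passing the test (−0.30 to −0.14). HIST2H3A had 160.6 CPM and its copy HIST2H3C 67.3 CPM. The rank therefore depends on how reads were divided between these copies.

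H4 genes were the class with fewest calls, while 52.9% of all genes tested were called in no line. In 8 lines and 11 genes the single call was HIST1H4K in F192E, with 3.66, 3.94 and 1.02 CPM with siUPF1 and 6.09, 7.53 and 4.62 CPM with siNT (−1.05, SE 0.38, adjusted p = 0.0453). Its near-identical copy HIST1H4J went the other way there (0.11), and the sum of the pair gave −0.21 (adjusted p = 0.546). HIST1H4E was the only H4 gene above 0 in all 8 lines (0.05 to 0.37, none past the threshold).

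**Figure D4:**
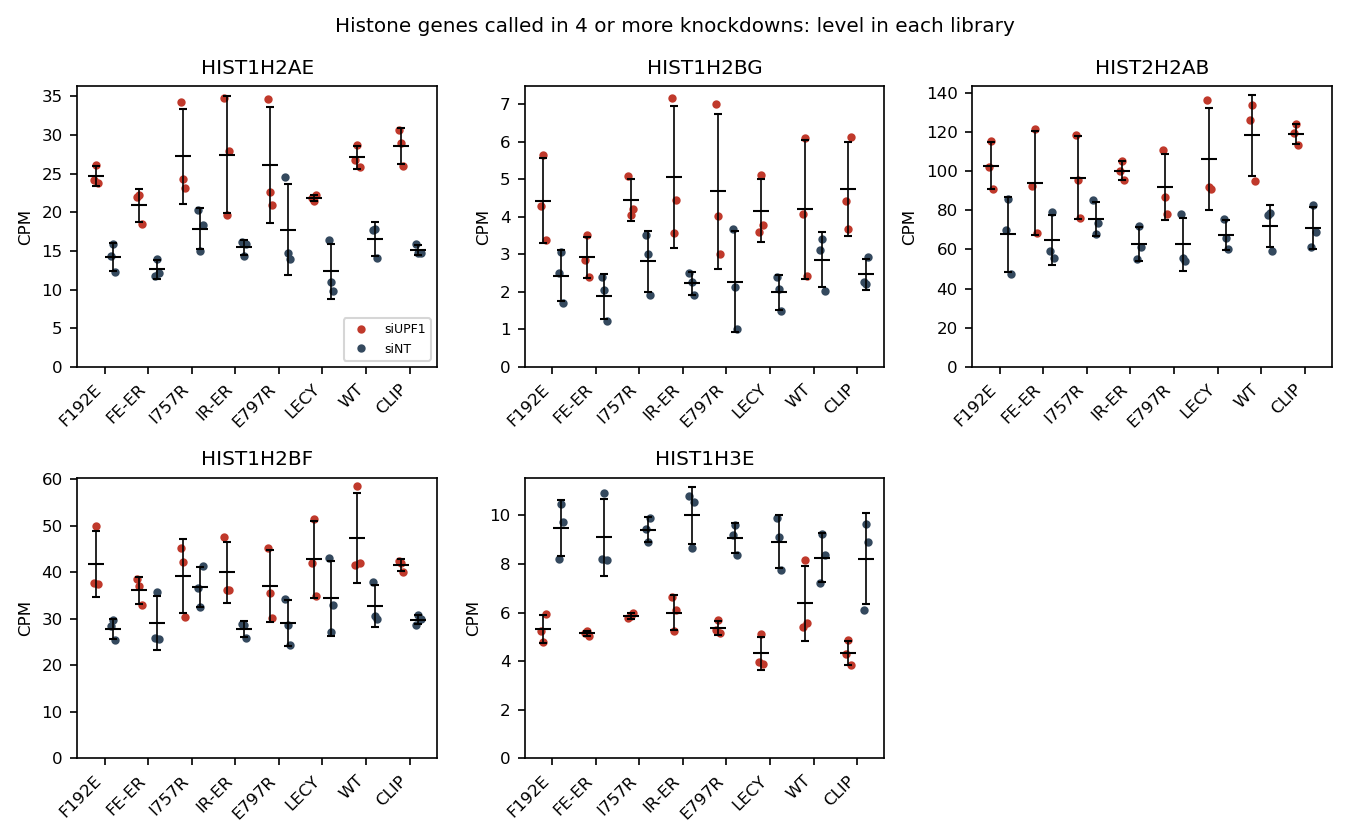
CPM (y axis) in every library of the 5 histone genes called in 4 or more knockdowns, by cell line (x axis). The shares of all genes called in as many lines are given in the text. Points are libraries (red siUPF1, dark blue siNT) and bars mean ± SD of 3. HIST1H2AE, HIST1H2BG, HIST2H2AB and HIST1H2BF have siUPF1 means above siNT in every line, and HIST1H3E below.

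Of the 52 members 38 (73.1%, against 52.9% of all genes) were called in no knockdown, and none was called higher in one line and lower in another. Higher calls came in 4 lines for 2 members (3.85%), in 5 for 1 (1.92%) and in 8 for 1. Of all genes 2.04% were higher in 4 lines, 1.61% in 5, 1.55% in 6, 1.47% in 7 and 3.54% in 8. Lower calls in 7 and in 8 lines had 1 member each (1.92%), against 1.26% and 3.2% of all genes. No member was lower in 4, 5 or 6 lines, against 1.56%, 1.28% and 1.22%. With the replicate block 30 (57.7%, against 34.2%) stayed without a call. The 8 members that the block added were HIST1H3H, lower in 4 lines, HIST1H2AH and HIST2H2AC, lower in 2 each, HIST2H2BF, HIST1H2AD, HIST1H4B and HIST2H3D, lower in 1 each, and HIST1H1D, higher in 1. Of the genes named above, HIST1H2BG and HIST1H2AE are neighbours that point away from each other, with 282 bases between their starts. They are 1 of 10 such pairs among the members (starts at most 1000 bases apart), and the only pair in which both genes were above 0 in all 8 lines. In the pair of HIST1H2AM and HIST1H2BO both genes were below 0 in all 8 lines. HIST1H2BF has the same arrangement with HIST1H2AD at 276 bases, but HIST1H2AD was below 0 in all 8 lines (−0.48 to −0.09, with a call in LECY with the block alone, adjusted p = 0.0418) while HIST1H2BF was above 0 in all 8. HIST1H2AD overlaps AL031777.3 on its own strand for its whole 393 bases, and 100% of the deposited values of HIST1H2AD were fractional. Whether reads were divided between them was not tested.

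The promoters of the 4 repeatedly changed histone genes with different start regions are given to show what such genes have upstream. RefSeq (GRCh38.p14) held promoter windows, 250 bases before to 50 after the start, for 47 of the 52 members, 46 of them histone genes. CCAAT on either strand (printed as CCAAT or ATTGG) was in 37 of these 46, and 24 had 3 or more. In all 35116 promoters of the table, 34.6% had 1 or more and 3.3% had 3 or more. TATAAA on either strand was in 33 of 46, against 11.5% of all promoters. These windows are not all separate DNA. The members include 10 pairs of genes that point away from each other, with starts 138 to 330 bases apart. Where both genes of a pair have a window, a box in the shared part was counted for both. HIST2H2AA3 and HIST2H2AA4 also have nearly the same window sequence. The counts are therefore not of independent promoters. The sequences run 5′ to 3′ with CCAAT and ATTGG in capitals.
HIST1H2AE, chr6:26216671-26216970, plus strand: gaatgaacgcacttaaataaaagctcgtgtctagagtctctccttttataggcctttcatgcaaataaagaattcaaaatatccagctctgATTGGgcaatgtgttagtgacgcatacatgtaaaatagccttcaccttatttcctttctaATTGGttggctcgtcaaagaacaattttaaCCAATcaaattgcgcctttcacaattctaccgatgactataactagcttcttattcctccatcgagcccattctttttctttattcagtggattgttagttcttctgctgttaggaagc
HIST2H2AB, chr1:149887916-149888215, minus strand: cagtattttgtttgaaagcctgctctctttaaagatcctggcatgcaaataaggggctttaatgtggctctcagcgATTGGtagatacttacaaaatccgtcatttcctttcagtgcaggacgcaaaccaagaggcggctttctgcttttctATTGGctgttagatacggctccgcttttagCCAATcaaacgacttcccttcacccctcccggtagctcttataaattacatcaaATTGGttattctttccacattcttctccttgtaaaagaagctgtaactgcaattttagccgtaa
HIST1H2BF, chr6:26199266-26199565, plus strand: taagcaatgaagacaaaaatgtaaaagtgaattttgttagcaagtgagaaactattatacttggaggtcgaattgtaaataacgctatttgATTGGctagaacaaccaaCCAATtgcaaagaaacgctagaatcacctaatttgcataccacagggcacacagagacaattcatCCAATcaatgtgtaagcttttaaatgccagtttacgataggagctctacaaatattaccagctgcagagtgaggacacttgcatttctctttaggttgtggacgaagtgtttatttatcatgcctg
HIST1H3E, chr6:26223928-26224227, plus strand: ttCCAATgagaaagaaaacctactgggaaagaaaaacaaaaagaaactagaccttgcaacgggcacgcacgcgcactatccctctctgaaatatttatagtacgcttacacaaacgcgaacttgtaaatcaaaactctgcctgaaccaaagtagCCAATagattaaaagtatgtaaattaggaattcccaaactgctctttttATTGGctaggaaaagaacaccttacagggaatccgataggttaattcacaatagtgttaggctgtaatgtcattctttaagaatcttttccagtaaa
The window of HIST1H2BG is the opposite strand of most of that of HIST1H2AE. HIST2H2AB had 4 of the boxes, and HIST1H2AE, HIST1H2BF and HIST1H3E 3 each. All 9 H4 promoters had 0, all 14 of H2A and all 12 of H2B had 1 or more, and 1 of the 8 H3 promoters, that of HIST1H3E, had 3 or more. The H2A and H2B counts include the DNA shared by paired genes.

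Several members are near-identical copies, and the expected counts divided reads between them by estimation. Of the values of histone members 67.32% were not whole numbers, against 25.83% for all genes with a mean of 10 or more. HIST2H3A took between 0% and 100% of the sum of HIST2H3A and HIST2H3C, depending on the library. HIST2H3C accordingly had a log2 change of −4.74 in I757R, which was not called, while HIST2H3A had 0.34 and their sum −0.24 (SE 0.17, adjusted p = 0.407). HIST2H2AA4 was called lower in LECY (−0.46, adjusted p = 0.0399), but its sum with HIST2H2AA3 was −0.36 (SE 0.18, adjusted p = 0.138). The sums of 4 such pairs, those of HIST2H4A with HIST2H4B and of HIST1H4J with HIST1H4K included, passed the test in no line. Values of these single genes are therefore uncertain. HIST1H2AE, HIST1H2BG and HIST1H3E had 0% to 10.42% values that were not whole, HIST1H2BF 43.75% and HIST2H2AB 77.08%.

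**Figure D5:**
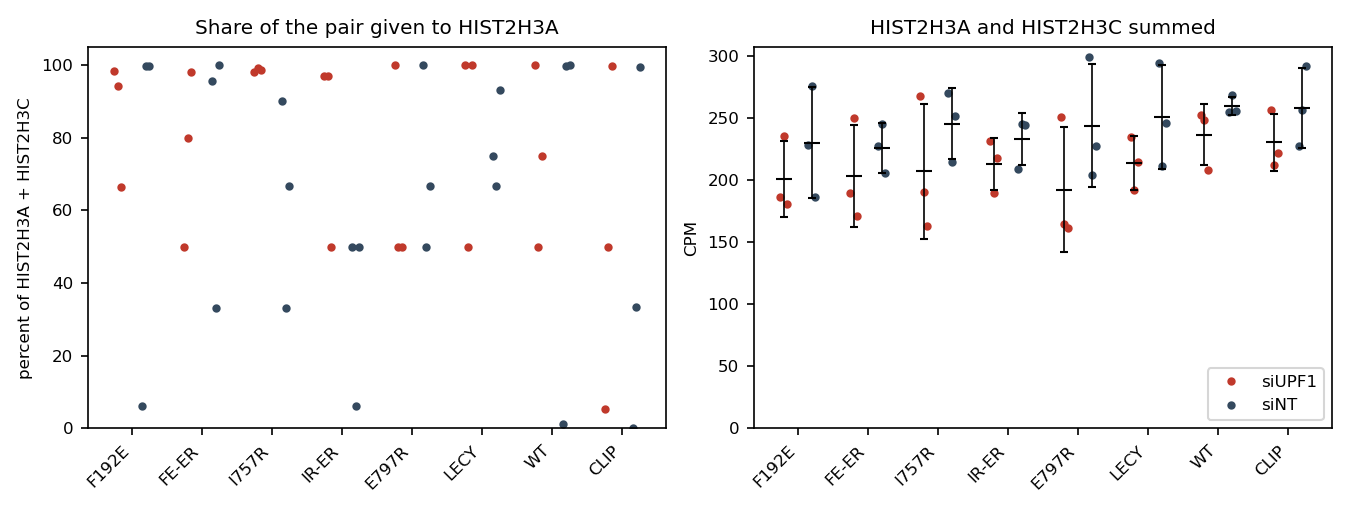
Left, percent of the summed CPM of HIST2H3A and HIST2H3C given to HIST2H3A in each library. Right, the summed CPM of both, with mean ± SD of 3. Points are libraries (red siUPF1, dark blue siNT) by cell line on the x axis. The shares range from 0% to 100% within groups of replicates, while the sums stay together.

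The lines were next compared with each other under siUPF1, which asks how the members stand with wild-type, mutant or no transgene UPF1 when the endogenous gene is targeted. These contrasts share the WT siUPF1 libraries, so they are not independent of each other. In WT against CLIP 4 members were higher (7.69%, against 5.45% of all genes) and 0 lower (against 8.61%). The replicate block gave 5 higher (9.62%, against 12.3%) and 0 lower (against 13.1%). A fit without the expression filter gave 6 higher (11.5%, against 3.25%) and 2 lower (3.85%, against 8.59%). Whether the share of higher members exceeded that of all genes thus depends on the fit. HIST1H3A had 8.54, 9.87 and 6.06 CPM in WT, against 3.73, 4.23 and 3.96 CPM in CLIP (1.02, SE 0.28, adjusted p = 0.00871). HIST1H1D had 70.5, 74.4 and 61.0 CPM in WT, against 39.7, 39.2 and 36.2 CPM in CLIP (0.84, SE 0.27, adjusted p = 0.0282). Neither overlapped. HIST1H3E was higher by 0.54 (SE 0.18, adjusted p = 0.0336) and SLBP by 0.26 (SE 0.08, adjusted p = 0.0296). DESeq2 called 3 of the 4, not HIST1H3E (adjusted p = 0.0797). The count of 4 became 0 without WT siUPF1 replicate 2, 1 without CLIP siUPF1 replicate 1 or 3, and 3 without any other library.

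In LECY against WT 6 members were lower (11.5%, against 5.34% of all genes) and 0 higher (against 8.18%). The replicate block gave 9 lower (17.3%, against 11.8%) and 0 higher (against 12.6%). A fit without the expression filter gave 8 lower (15.4%, against 3.44%) and 0 higher (against 7.91%). HIST1H2AL had 3.59, 2.34 and 2.91 CPM in LECY, against 8.54, 7.99 and 6.30 CPM in WT (−1.35, SE 0.32, adjusted p = 0.00251). HIST1H3A had 4.48, 4.97 and 2.91 CPM in LECY, against 8.54, 9.87 and 6.06 CPM in WT (−1.002, SE 0.28, adjusted p = 0.0121). HIST1H1D had 38.8, 36.4 and 33.6 CPM in LECY, against 70.5, 74.4 and 61.0 CPM in WT (−0.92, SE 0.27, adjusted p = 0.0164). The groups were apart for each of them. HIST1H2AB (−0.87, adjusted p = 0.026), HIST1H3E (−0.56, adjusted p = 0.0292) and SLBP (−0.25, adjusted p = 0.043) were the other 3. HIST1H2AL was low in LECY with siNT as well, with 1.70, 2.31 and 3.98 CPM in LECY against 6.89, 8.08 and 7.09 CPM in WT (−1.44, SE 0.32, unadjusted p = 6.48e-05, adjusted p = 0.18). DESeq2 gave HIST1H3E an adjusted p of 0.0571. The count of 6 became 1 without WT siUPF1 replicate 2 or LECY siUPF1 replicate 3, and 3 without LECY siUPF1 replicate 2.

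No member was called in the other 5 mutants against WT under siUPF1, by edgeR or DESeq2. Shares of all genes called were 1.82% (F192E), 0.425% (FE-ER), 0.0779% (I757R), 0.246% (IR-ER) and 0.0479% (E797R). At an unadjusted p under 0.05 edgeR gave 8 members in F192E (15.4%, against 12.1% of all genes), 6 in FE-ER (11.5%, against 8.70%), 5 in I757R (9.62%, against 7.41%), 3 in IR-ER (5.77%, against 7.90%) and 3 in E797R (5.77%, against 4.79%). The medians of the members were all negative, −0.25, −0.28, −0.20, −0.15 and −0.22, and 41 to 47 of the 52 were lower than in WT, against 48.7% to 51.0% of all genes. The same 3 WT libraries stand in each of these contrasts, so the shared sign is not a repeated observation. With the block, 5 members were lower in F192E against WT (9.62%, against 2.74% of all genes in that fit: SLBP, HIST1H1D, HIST1H2AB, HIST1H3D and HIST1H3A).

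With siNT no member was called between lines, by either tool. The shares of all genes called were 0% in F192E against WT, 0.00599% each in FE-ER, I757R, IR-ER and LECY against WT, 0.0180% in E797R against WT and 0.0120% in WT against CLIP. At an unadjusted p under 0.05 there was 1 member in IR-ER (1.92%, against 2.73% of all genes) and 2 in LECY (3.85%, against 2.11%), and 0 in the other 5 contrasts (against 1.52% to 2.88%). Here too the member medians of the mutants lay below WT, from −0.23 in F192E to −0.06 in I757R.

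No member was called in the differences of knockdown effects either. Of all genes, 0.767% were higher and 3.23% lower in WT minus CLIP, and 2.76% higher and 0.551% lower in LECY minus WT. The shares in either direction were 0.180% for F192E minus WT, 0.00599% for FE-ER minus WT and for LECY minus CLIP, and 0% for I757R, IR-ER and E797R minus WT. DESeq2 called 0 as well. At an unadjusted p under 0.05 there were 4 members in LECY minus WT (7.69%, against 13.5% of all genes) and 2 in WT minus CLIP (3.85%, against 14.2%). F192E and I757R minus WT had 1 each (1.92%, against 4.38% and 1.87%), and the other 4 had 0 (against 1.23% to 2.55%). The smallest adjusted p was that of HIST1H3E in LECY minus WT (−0.66, 95% interval −1.14 to −0.19, adjusted p = 0.148).

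Genes that handle histone mRNA, listed from textbook roles, moved in both directions. Of 45 tested genes for histone mRNA transcription, processing and decay, 8 rose (17.8%, against 15.8% of all genes) and 9 fell (20%, against 13.6%) in LECY. In CLIP 9 rose (20%, against 18.1%) and 7 fell (15.6%, the share of all genes). The other lines had 2 to 5 rises (4.44% to 11.1%, against 8.13% to 11.8% of all genes). They had 3 to 6 falls (6.67% to 13.3%, against 6.98% to 10.1%). In CLIP, SMG1, the kinase that phosphorylates UPF1, had 981.5 ± 64.0 CPM with siUPF1 and 335 ± 31.5 CPM with siNT (SD, n = 3 each; log2 1.55, SE 0.09, adjusted p = 9.03e-17). CPSF1, a subunit of the polyadenylation complex, rose in all 8 lines (0.49 to 0.83). CPSF3, the endonuclease that cuts histone pre-mRNA, fell in 7 lines (−0.59 in CLIP, SE 0.12, adjusted p = 8.84e-05). DDX19B, an RNA helicase of mRNA export, rose by 0.57 in CLIP (SE 0.09, adjusted p = 1.39e-06).

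S-phase genes, the partners of histone synthesis, moved both ways with more falls than rises in every line. Of 43 tested, SLBP among them, 6 rose (14%, against 15.8% of all genes) and 11 fell (25.6%, against 13.6%) in LECY. In CLIP 8 rose (18.6%, against 18.1%) and 13 fell (30.2%, against 15.6%). I757R had 1 rise (2.33%, against 8.13%) and 11 falls (25.6%, against 7.79%). The other 5 lines had 3 or 4 rises (6.98% to 9.3%, against 8.34% to 11.8% of all genes). They had 5 to 10 falls (11.6% to 23.3%, against 6.98% to 10.1%). The medians in CLIP were −0.15 for this list and −0.03 for all genes. POLD1, the catalytic subunit of a replicative polymerase, had 90.2 ± 8.79 CPM with siUPF1 and 37.7 ± 2.44 CPM with siNT in CLIP cells (SD, n = 3 each; 1.26, SE 0.14, adjusted p = 2.39e-09) and rose in all 8 lines. PRIM1, the catalytic primase subunit, had 25.3 ± 1.17 CPM with siUPF1 and 44.3 ± 2.71 CPM with siNT there (−0.81, SE 0.10, adjusted p = 2.78e-08) and fell in 7. CHAF1B, a subunit of the chaperone that places histones behind the replication fork, fell in all 8 (−0.62 in CLIP, SE 0.08, adjusted p = 1.83e-08). With the replicate block the falls per line became 9 to 13 in the histone mRNA list (20% to 28.9%) and 10 to 21 in the S-phase list (23.3% to 48.8%), against 12.4% to 22.2% of all genes. Whether these genes' changes bear on SLBP or the histone mRNAs was not tested.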

How the data were processed

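The authors deposited expected counts per gene from rRNA-depleted total RNA of 48 libraries. Per the submitters' processing notes, cutadapt, STAR, RSEM and DESeq2 were used with hg38. Their versions, the gene annotation and the use of strand are not given in the sources used here. RSEM divides reads that fit several genes by estimation, which bears on near-identical histone genes. The labels call the replicates biological.

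The expected counts were rounded. Genes passing edgeR's filterByExpr (minimum count 10) were tested, 16697 in all, in 1 fit over 16 groups with TMM scaling (edgeR 4.0.16, R 4.3.3, limma 3.58.1). The robust quasi-likelihood F test was used, with Benjamini-Hochberg adjustment over all genes tested and a threshold of 0.05. CPM are on TMM-scaled library sizes. An SE is the log2 change divided by the root of F. Positions and transcripts are from GENCODE 29, which matched 58597 gene identifiers, and may not be the authors' release. Library totals were 6016962 to 14551811 counts with a median of 8670868, and their number limits the precision of rare genes. The fit was tested on simulated data.

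Alternatives were DESeq2 1.42.0, median-of-ratios scaling, no expression filter, the replicate number as a block, only the groups of a contrast, leaving out each library, only members with a stem-loop match and only members with a mean count of 100 or more. Summing identical copies was added after seeing the data. Replicate numbers come from the labels. Same-numbered siUPF1 and siNT libraries of a line deviated together in all 24 pairs (r 0.115 to 0.469). Same-numbered libraries of different lines mostly did so too. Their r ran from −0.099 (IR-ER and WT, siNT replicate 1) to 0.493 (LECY and WT, siNT replicate 3). The numbers thus pair the samples of a knockdown and also link the lines. The main fit did not use them, and the replicate block did.

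Members named are those past the threshold with the smallest p in CLIP (up to 12) or the largest change in another contrast (up to 4), those called in most lines, the most abundant of each class, and up to 4 genes of each list by p in CLIP. Others with values near or opposite to these were named after their values were seen. The members and lists were chosen with earlier results of these data known.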

Additional observations from a re-analysis of the deposited data

How the results depend on the processing

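The falls of SLBP and HIST1H3E kept their direction under every alternative run, and no change that passed the test reversed. Medians near 0 did change sign: that of E797R minus WT, −0.149 with all libraries, was 0.034 without E797R siNT replicate 1 and 0.009 without E797R siUPF1 replicate 3, and that of FE-ER minus WT was 0.018 without FE-ER siUPF1 replicate 3. Of the values of single named genes under alternatives, 579 kept direction and side of the threshold, 124 lost the call and 14 gained one. Counts of changed members follow, and the causes were not tested. With the replicate block the count was 7 in FE-ER (13.5%, against 31.1% of all genes in that fit) and 8 in I757R (15.4%, against 28.5%). It was 7 in E797R (13.5%, against 27.4%) and 16 in LECY (30.8%, against 41.6%). For F192E against WT with siUPF1 the block count was 5 (9.62%, against 6.99%). With no expression filter it was 13 (F192E), 9 (FE-ER), 15 (I757R), 12 (IR-ER), 11 (E797R), 19 (LECY) and 8 (WT), that is 15.4% to 36.5% of the members, against 13.3% to 25.9% of all genes in these lines. The same setting gave, between lines with siUPF1, 8 in WT against CLIP and 8, 3, 2 and 5 in F192E, FE-ER, I757R and IR-ER against WT (3.85% to 15.4%, against 0.605% to 11.8% of all genes). With siNT it gave 2 in WT against CLIP and 1, 2, 1, 3 and 2 in F192E, FE-ER, I757R, IR-ER and LECY against WT (1.92% to 5.77%, against 0.138% to 0.317%). For differences of knockdown effects it gave 2 in WT minus CLIP and 1, 1, 3 and 2 in F192E, I757R, IR-ER and LECY minus WT (1.92% to 5.77%, against 0.192% to 3.65%). With only the 28 histone members that have a stem-loop match, the count was 2 (F192E), 1 (FE-ER), 1 (I757R), 3 (IR-ER), 2 (E797R, with a median of −0.167), 3 (LECY), 2 (WT), 3 (CLIP), 0 in WT against CLIP and 0 in LECY against WT. The median was −0.175 in F192E against WT. Fewer genes enter these counts, and SLBP is not among them. The main counts include SLBP, which was called in each of the contrasts counted here, so leaving it out lowers each count by itself. The shares of all genes called are those of the main fit. With members of mean count 100 or more it was 2 in E797R, 2 in WT against CLIP and 3 in LECY against WT. Using only the groups of the contrast gave 2 in E797R and 2 in F192E against WT, and summing copies gave 3 in I757R. Without 1 library, the knockdown counts were 3 to 5 in FE-ER and I757R, 2 to 6 in IR-ER, 2 to 5 in E797R, 6 to 12 in LECY, 1 to 4 in WT and 4 to 11 in CLIP. With siUPF1 they were 0 to 3 in WT against CLIP and 1 to 6 in LECY against WT. Shares of all genes are not given here for the fits on a contrast's groups, summed copies or fewer libraries. Those counts therefore make no comparison with genes in general. Medians ran from −0.266 to −0.014 in F192E, −0.364 to −0.063 in E797R, −0.347 to −0.144 in F192E against WT, −0.436 to −0.155 in FE-ER against WT, −0.248 to 0.018 in FE-ER minus WT, −0.288 to 0.034 in E797R minus WT and −0.196 to −0.008 in LECY minus WT. Depth limits the rarest members, such as HIST1H2BG.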

Other observations

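H1F0, the replication-independent linker histone of resting and differentiating cells, which has a poly(A) tail, rose with siUPF1 in all 8 lines. In CLIP cells H1F0 had 72.8, 59.3 and 65.0 CPM with siUPF1, against 31.5, 21.2 and 25.0 CPM with siNT (log2 change 1.35, SE 0.22, edgeR adjusted p = 6.43e-06). In WT cells it had 58.3, 45.1 and 59.95 CPM with siUPF1, against 27.3, 18.7 and 27.3 CPM with siNT (1.17, SE 0.23, adjusted p = 0.000271). The groups were apart in both lines, and over the 8 lines the log2 change was 0.92 to 1.35. Of the 13 genes tested from a list of replication-independent histones it was the 1 called higher in each line (7.69%, against 8.13% to 18.1% of all genes). With the replicate block 1 to 4 of the 13 were called higher, 4 in CLIP (30.8%, against 23.5%). The list includes H2AFX, in which the stem-loop letters were also found. H3F3A, which encodes the variant H3.3, had 258.8 ± 12.96 CPM with siUPF1 and 313.9 ± 21.8 CPM with siNT in CLIP cells (SD, n = 3 each; −0.28, edgeR adjusted p = 0.00888). H2AFY, which encodes macroH2A, fell in 2 lines (−0.30 in CLIP, adjusted p = 0.0408).

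Of 15 genes for histone chaperones and importers, 2 rose in each line (13.3%, against 8.13% to 18.1% of all genes) and 1 to 3 fell (6.67% to 20%, against 6.98% to 15.6%). With the replicate block 3 to 8 fell (20% to 53.3%, against 12.4% to 22.2%). NASP, ASF1A, ASF1B, CHAF1A and CHAF1B are also in the S-phase list, so the falls of these lists are not separate results. HIRA, the chaperone that deposits H3.3 outside replication, had 167.5 ± 4.33 CPM with siUPF1 and 86.5 ± 8.62 CPM with siNT in CLIP cells (SD, n = 3 each) and rose in all 8 lines (0.36 to 0.96). IPO4, an importin that carries new H3 and H4, rose in all 8 lines (0.38 to 0.82). RBBP7, a histone-binding subunit of several chromatin complexes, fell in CLIP alone among the calls (−0.40), with −0.25 as its smallest change. Among 13 mitochondrial mRNAs 0 to 3 rose per line (0% to 23.1%, against 8.13% to 18.1% of all genes). None of them fell (against 6.98% to 15.6%). Of 9 structural RNAs 1 rose, in CLIP (11.1%, against 18.1%).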
